A study of Mus musculus with 2 samples.

Results

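Imprinted genes are genes of which mainly the copy inherited from one parent is read. The 45 genes described here were named by symbol from 19 known imprinted loci of the mouse, and all 45 matched a row among the 43346 Ensembl genes in the tables. They comprise 39 protein-coding genes and 6 long noncoding RNAs. By published allele, 24 are known as read from the paternal copy and 18 from the maternal copy, while in 3 the allele depends on the transcript.

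The parental mark is DNA methylation laid down in the egg or the sperm at an imprinting control region, and it is kept through development by KRAB zinc finger proteins such as ZFP57 together with TRIM28 and DNMT1. Within a cluster, a long noncoding RNA or the insulator protein CTCF then sets neighbouring genes to opposite parental copies. Many imprinted genes act on growth, and the brain is a tissue in which several of them are read most strongly or, as with Ube3a, are imprinted in neurons. The tables hold no allele information, so levels below are sums over both copies.

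The tissue was whole midbrain of mice of strain B6NTac;B6NCrl/Lap on the day of birth (age 0 days), with males and females pooled. Total RNA longer than 200 bases, freed of ribosomal RNA and with spike-in RNAs added, was sequenced in 2 stranded paired-end libraries, labelled as biological replicates from independent isolates. Replicate 1 came from a pool of 15 animals, and the pool size of replicate 2 is not given. With 1 group and 2 pools there is no comparison between groups and no p-value, and values are TPM (the share of all transcripts, a level per length) as the mean ± SD over the 2 libraries (n = 2) or for replicate 1 and then replicate 2.

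The libraries held 46685706 and 72779229 counts. All 8 midbrain markers were detected, and their summed counts differed by 0.16 (log2, replicate 2 over replicate 1, after TMM scaling for library size). Forebrain markers (3 of 6 detected) summed to 21.5 and 20.5 TPM and differed by 0.25. Lhx2 set most of the forebrain sum, with 16.5 TPM in each library. Choroid plexus markers (3 of 6 detected) were higher in replicate 2 by 3.31, with a summed level of 17.9 TPM in replicate 1 and 170 TPM in replicate 2. Ttr set most of that sum, with 14.4 and 163 TPM, and without it the other 5 markers summed to 3.44 and 7.61 TPM and differed by 1.32. Blood markers (5 of 5 detected) summed to 588.5 and 726 TPM and differed by 0.53. Hindbrain markers (0 of 4 detected in both libraries) differed by 3.11, from summed levels of 0.59 and 6.31 TPM, and skeletal muscle markers (1 of 4 detected) by 1.44. Deposited TPM ran lower in replicate 2 across the tissue, with a median log2 ratio of -0.26 over the 17574 genes whose counts summed to 20 or more, while scaled counts had a median of 0.01.

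Most of the 45 imprinted genes described here were read in the newborn midbrain. At least 1 TPM in both libraries, here called detected, was reached by 36 of the 45 members, against 27.7% of all Ensembl genes. Among coding members 32 of 39 were detected, against 53.8% of protein-coding genes, and among noncoding members 4 of 6. By allele class, 18 of 24 paternal, 15 of 18 maternal and all 3 transcript-dependent genes were detected. Detected members had a median of 18.1 TPM in replicate 1 and 13.2 TPM in replicate 2, against 7.77 and 6.40 TPM for all detected genes. At least 100 TPM in both libraries was reached by 6 of the 36 detected members (Nnat, Rian, Gnas, Meg3, Ndn and Mest), against 1.93% of all detected genes.

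The members together made up 0.446% of TPM in replicate 1 and 0.351% in replicate 2. Their share of counts was 1.05% and 0.923%. All protein-coding genes together held 22.4% and 19.8% of TPM. Nnat with Rian and Gnas held 65.3% of the members' TPM in replicate 1 and 66.1% in replicate 2. By locus the Nnat domain held 42.0% and 42.8%, Dlk1-Dio3 25.0% and 23.0%, the Prader-Willi/Angelman domain 9.10% and 9.89%, and Gnas 7.82% and 8.41%. Paternal genes summed to 2642 and 2139 TPM and maternal genes to 1346 and 984 TPM. Nnat alone gave 1809 and 1449 TPM of the paternal sum. The median was 8.64 and 6.59 TPM over the 24 paternal genes and 15.5 and 9.17 TPM over the 18 maternal genes.

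**Figure D1:**
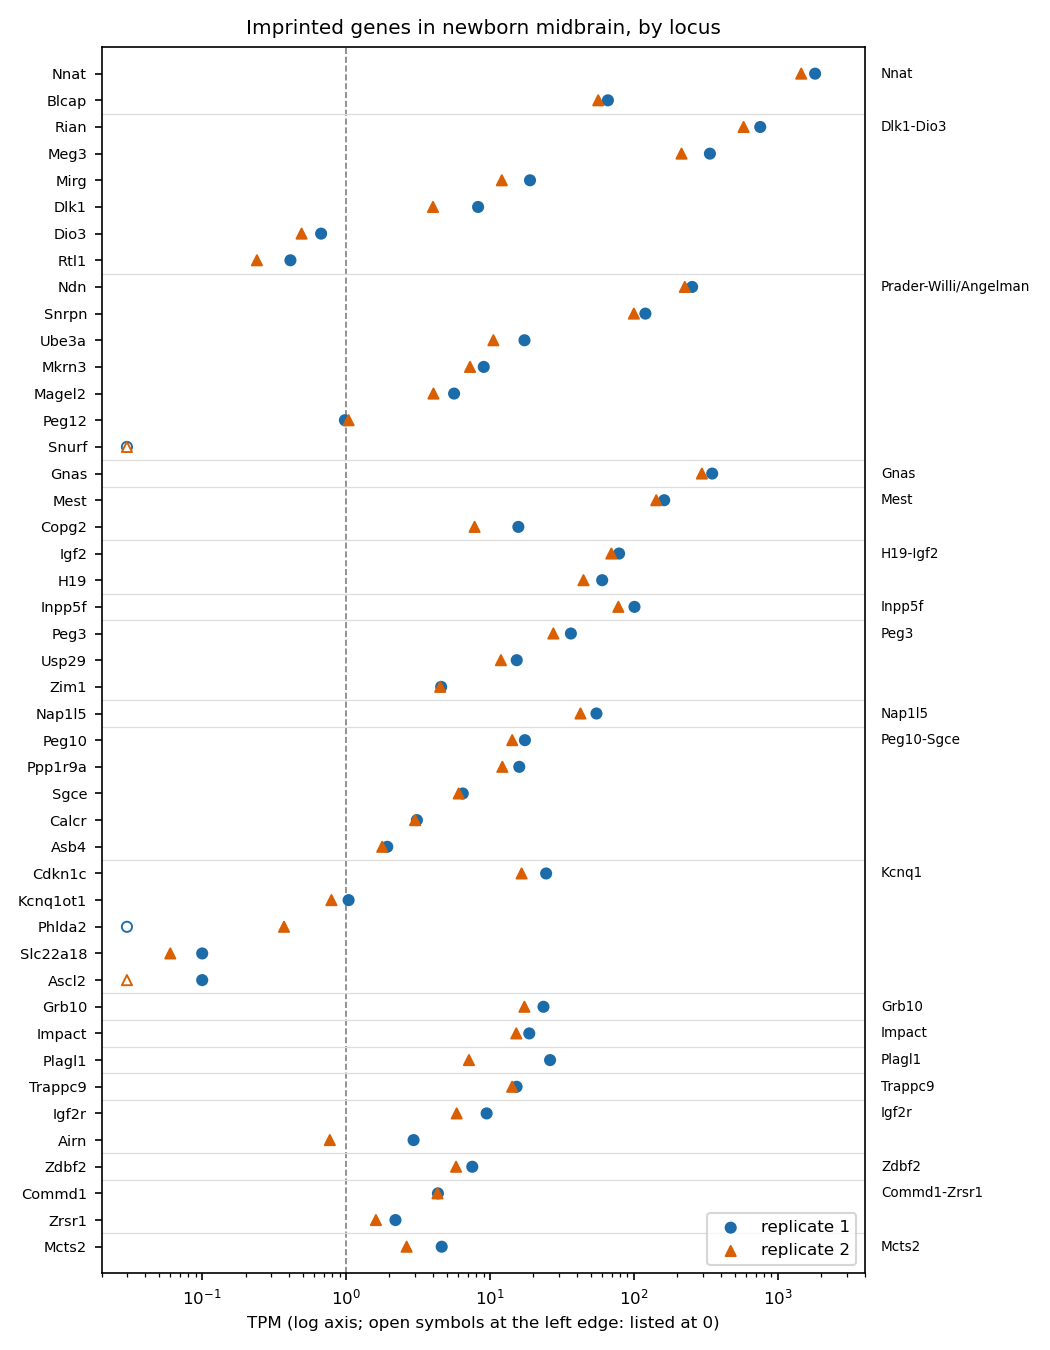
Level of each of the 45 imprinted genes in TPM (log axis) in replicate 1 (circles) and replicate 2 (triangles), grouped by locus and sorted by summed level of the locus; the dashed line marks 1 TPM and open symbols at the left edge are listed at 0. Nnat stood at 1809 and 1449 TPM, while Snurf was listed at 0 in both libraries.

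The microRNA cluster of Dlk1-Dio3 is shown first because the coding gene Rtl1 lies opposite some of its hairpins. Between the Dlk1 and Dio3 genes, RefSeq (GRCm38.p6) places 58 microRNA hairpins, of which 54 lie on the strand of Meg3, Rian and Mirg. Of these, 6 lie within the exon of Rtl1 on the opposite strand and so are complementary to its mRNA. One mature strand of each is shown 5′ to 3′, with the seed (bases 2 to 8, which pair with targets) in capitals.
miR-431-5p: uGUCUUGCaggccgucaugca
miR-433-3p: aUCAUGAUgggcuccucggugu
miR-127-3p: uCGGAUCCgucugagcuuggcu
miR-434-3p: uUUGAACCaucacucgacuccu
miR-432: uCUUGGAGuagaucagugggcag
miR-136-5p: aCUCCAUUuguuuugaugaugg
These strands lie at chr12:109590459-109590479, chr12:109591781-109591802, chr12:109592888-109592909, chr12:109594565-109594586, chr12:109595006-109595028 and chr12:109595331-109595352 on the plus strand, and no pair of the 6 shares a seed.

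Across the cluster, 113 mature names carried 104 seeds, and 9 seeds were shared by a pair of them. Examples are given because shared seeds group microRNAs that read the same target letters.
miR-379-5p: uGGUAGACuauggaacguagg
miR-1193-5p: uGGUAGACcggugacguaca
miR-379-3p: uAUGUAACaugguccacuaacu
miR-411-3p: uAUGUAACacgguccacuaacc
miR-376b-5p: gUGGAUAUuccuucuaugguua
miR-376c-5p: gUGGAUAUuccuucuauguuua
None of these microRNAs was measured here: the 59 microRNA and 23 snoRNA genes that the annotation places in the domain had 0 counts in both libraries, and every one had an effective length of 0 in replicate 1, so its level could not be read from these tables. The same held for 210 snoRNA and 20 microRNA genes of the Prader-Willi/Angelman domain. Several hairpins of the cluster lie within none of Meg3, Rian, Mirg and Rtl1, among them those of miR-379, miR-411, miR-1193, miR-376b and miR-376c. The values below are those of the host transcripts and not of the microRNAs.

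The strongest of these hosts was Rian, a maternally read noncoding RNA that carries box C/D snoRNAs, with 752 TPM in replicate 1 and 577 TPM in replicate 2 (chromosome 12, 109603940 to 109661716, mm10). Meg3, the first RNA of the same maternal transcription unit and a noncoding tumour suppressor candidate in human, had 336 and 214 TPM. Mirg, the host at the far end, in which 14 of the hairpins lie, had 18.9 and 12.1 TPM. Rian exceeded Meg3 by 1.30 ± 0.19 (log2 ratio of TPM + 0.1 within a library), although by counts it had 68275 and 90456, against 70213 and 71668 for Meg3, and Mirg was below Meg3 with a log2 ratio of -4.14 ± 0.01.

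The paternally read coding genes of the domain were far lower. Dlk1, a Notch-related membrane protein, had 8.25 and 4.01 TPM from 637 and 901 counts. Its TPM ratio between the libraries was -1.02 (log2) and its scaled count ratio -0.10. The 668-base retained-intron Dlk1-210 held 42.8% of this TPM in replicate 1 and 12.2% in replicate 2. Rtl1, a retrotransposon-derived gene needed in the placenta, had 0.41 and 0.24 TPM from 192 and 207 counts. Dio3, the deiodinase that inactivates thyroid hormone, had 0.67 and 0.49 TPM from 87 and 82 counts. Neither Rtl1 nor Dio3 reached the detection level. The sum over the 3 coding genes was 9.33 and 4.74 TPM, against 1108 and 802 TPM for the 3 noncoding RNAs. Meg3 exceeded Dlk1 by 5.52 ± 0.26 (log2), and Rtl1 and Dio3 were below Dlk1 with log2 ratios of -3.81 ± 0.31 and -3.12 ± 0.45. In bulk tissue, fewer cells of a type and less RNA per cell cannot be told apart, here or in any level below.

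For Meg3 the unit matters. Its longest transcript, Meg3-209 of 14548 bases, held 63.3% of the gene's counts in replicate 1 and 62.1% in replicate 2, but 12.1% and 10.3% of its TPM. The spliced Meg3-205 of 1498 bases led in TPM with 34.6% and 23.6%. The start group of Meg3-205 held 49.99% and 38.8% of Meg3 TPM, and the other start groups lie up to 8156 bases into the gene. Rian-202, which starts 42201 bases into the gene, led Rian with 29.6% and 29.5%. Mirg-207, of 694 bases, led Mirg with 29.0% and 32.5%. The noncoding Gm26945, within the span of Rian and on its strand, had 6.32 and 2.93 TPM, and Gm37899, between Rian and Mirg, 4.05 and 1.74 TPM.

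In the Prader-Willi/Angelman domain, named for human syndromes that follow loss of its paternal or maternal copy, Ndn was highest of the 7 members. Ndn (necdin, a MAGE-family protein of postmitotic neurons) had 253 and 225 TPM (chromosome 7, 62346569 to 62350262, mm10). Snrpn, which encodes the spliceosomal protein SmN, had 120 and 99.7 TPM. Both libraries placed Snrpn above Snrpb, its non-imprinted paralog for SmB, by 1.21 ± 0.06 (log2; 53.3 and 41.7 TPM for Snrpb). The intronless neighbours of Ndn were much lower: Mkrn3, a makorin zinc finger protein, had 9.03 and 7.25 TPM and a log2 ratio of -4.87 ± 0.10 to Ndn. Magel2, a MAGE-family protein of endosomal sorting, had 5.62 and 4.04 TPM and a ratio of -5.62 ± 0.21. Peg12, of the Frat family of GSK3-binding proteins, stood at the detection level with 0.98 and 1.04 TPM and a ratio of -7.75 ± 0.17.

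Ube3a, a ubiquitin ligase read from the maternal copy in neurons and from both copies elsewhere, had 17.3 and 10.5 TPM and lay below Snrpn with a log2 ratio of -3.01 ± 0.32. Snhg14, the paternal snoRNA host whose far end runs antisense to Ube3a, is not a member but was set beside it after the values had been seen. Snhg14 had 265 and 180 TPM and exceeded Ube3a by 4.004 ± 0.11 (log2). The difference was smaller by counts, with 23229 and 25521 for Snhg14 against 6402 and 7201 for Ube3a. The exons of Ube3a and Snhg14 overlap on opposite strands over 1803 bases, or 8.74% of the annotated exon bases of Ube3a. The measured Ube3a row holds 1 transcript of 5097 bases, and the part of the overlap within it was not measured. How the authors' counting used strand is not given in the sources used here.

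Snurf, the small upstream reading frame on the Snrpn transcript, cannot be judged from its row. The row is 216 bases long, had an effective length of 0 in replicate 1 and 1.76 bases in replicate 2, and was listed at 0, so no ratio to Snrpn is given. All of its windows of 1 read length also occur in Snrpn and in the overlapping gene Gm38393. Snrpn shares 16.6% of its windows with Gm38393, which had 5390 and 6009 counts of its own against 15226 and 23434 counts for Snrpn, and how the authors' counting divided shared reads is not given in the sources used here. Within Snrpn, Snrpn-201 held 97.0% and 96.9% of TPM, and Snrpn-202, which starts 135108 bases upstream of it, held 3.00% and 3.14%.

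Nnat (neuronatin, a small membrane protein of the endoplasmic reticulum) was the highest member with 1809 and 1449 TPM (chromosome 2, 157560078 to 157562522, mm10). It ranked 12 among all Ensembl genes and 5 among protein-coding genes by mean TPM. It lies within the Blcap gene on the opposite strand and is read from the paternal copy. Blcap, a small membrane protein whose brain transcripts lean to the maternal copy, had 65.8 and 56.4 TPM. Nnat exceeded Blcap by 4.73 ± 0.07 (log2). Nnat-205 held 62.5% and 56.1% of Nnat TPM, and 99.8% and 99.95% came from 1 start group.

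Of the imprinted genes that sit inside a host gene, 3 more were compared with it. Nap1l5, of the nucleosome assembly protein family, had 54.8 and 42.4 TPM, against 31.2 and 25.0 TPM for its host Herc3, a log2 ratio of 0.79 ± 0.04 that stayed under 2-fold. Mcts2 had 4.61 and 2.63 TPM, below its host H13 (-3.23 ± 0.36) and below its parent gene Mcts1 (-1.72 ± 0.49). Mcts2 lies within H13 on the same strand, so reads of unspliced H13 RNA there cannot be told from its own. Zrsr1, a U2AF-related splicing factor, had 2.20 and 1.61 TPM, against 4.34 and 4.31 TPM for its host Commd1 and 4.19 and 3.17 TPM for its parent gene Zrsr2. The log2 ratios of -1.16 ± 0.29 and -0.92 ± 0.02 were not 2-fold in both libraries. With the authors' posterior mean TPM the mean ratios were larger, at -1.24 and -1.04. The exons of Zrsr1 and Commd1 overlap on opposite strands over 412 bases, and how the authors' counting used strand is not given. No window of 1 read length was shared between Mcts2 and Mcts1 or between Zrsr1 and Zrsr2 in the GENCODE M21 transcripts. Inpp5f encodes an inositol phosphatase, and a paternally read brain transcript is known to begin within it. It had 100.7 and 77.8 TPM, and start groups 76218 and 77161 bases into the gene (Inpp5f-208 and Inpp5f-203) held 62.6% and 61.8%, and 29.7% and 31.6%, of its TPM. The start at the head of the gene held 5.53% and 5.52%.

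Gnas, which encodes the stimulatory G protein alpha subunit from one start and other products from further starts, had 349 and 296 TPM (chromosome 2, 174284320 to 174346744, mm10). The start group 45686 bases into the gene, led by Gnas-208 with 394 residues, held 81.7% and 81.8%. This is the G protein start, known as read from both copies in most tissues. The group at 43250 bases, where the paternal exon 1A RNA starts, held 13.7% and 12.4%. The first group, known for the maternal NESP55 protein, held 3.03% and 3.96%, and the group at 13539 bases, known for the paternal XL form, held 0.79% and 1.16%. Nespas, the antisense RNA to the NESP55 start, had 1.00 and 0.33 TPM.

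Grb10, an adaptor that dampens insulin receptor signalling and is maternal in most tissues but paternal in neurons, had 23.5 and 17.3 TPM. Grb10-201, whose start lies 1282 bases into the gene, held 50.7% and 44.0%. The downstream starts at 10712, 11951 and 68041 bases held 17.8% and 30.6%, 19.7% and 13.1%, and 8.12% and 9.87%. Groups are not assigned to an allele here.

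**Figure D2:**
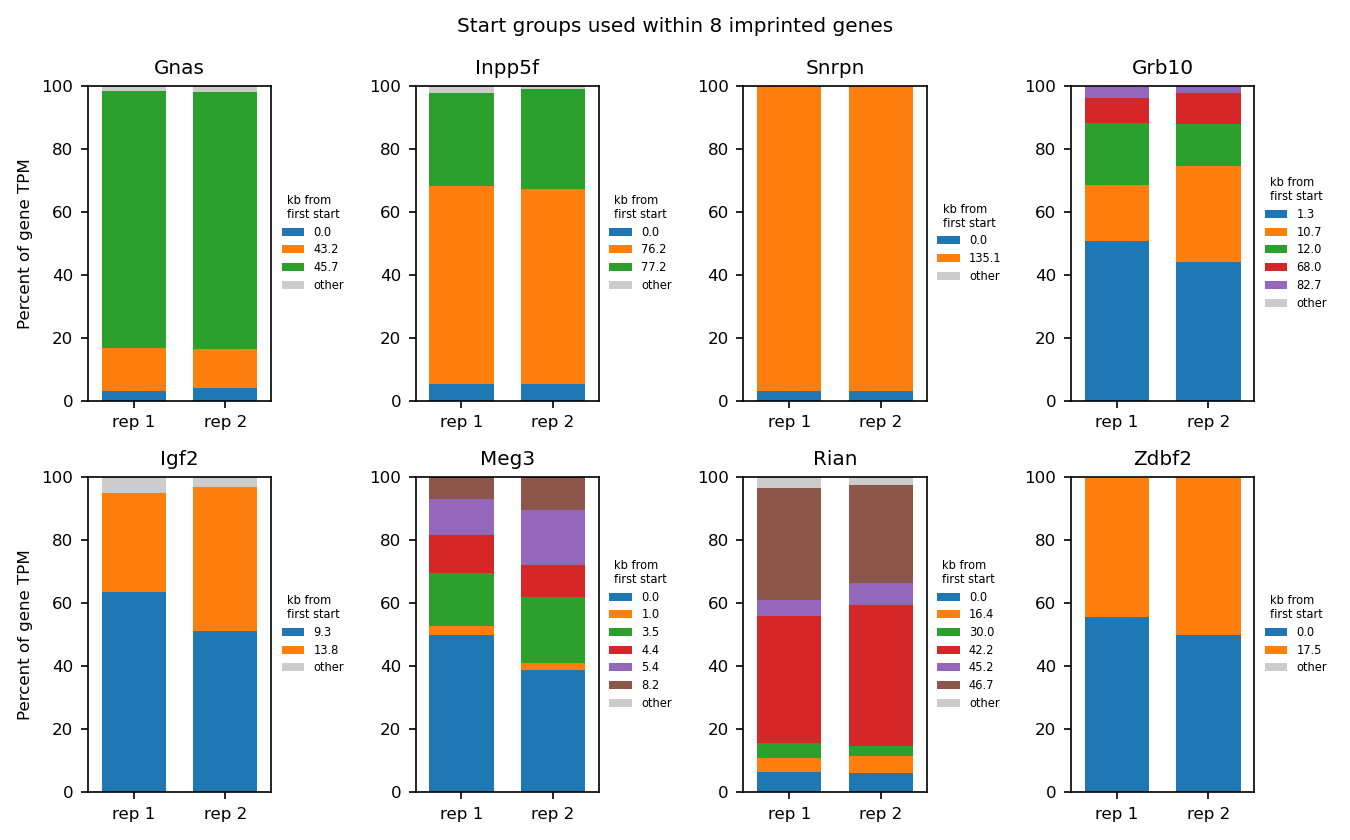
Percent of gene TPM carried by each group of transcript starts (starts within 500 bases merged) for 8 imprinted genes, replicate 1 left and replicate 2 right in each panel; colours give the distance in kilobases from the first annotated start, and grey holds groups under 2% on average together with transcripts without a position. Gnas drew 81.7% and 81.8% from its start at 45686 bases, and Snrpn 97.0% and 96.9% from its start nearest the coding exons.

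Mest, a paternally read hydrolase-fold protein, had 162 and 143 TPM. Its leading transcript of 836 bases, ENSMUST00000128398, held 68.4% and 77.5%, but it is in the authors' annotation and not in GENCODE M21, so its start is not placed. The full-length Mest-211 held 30.9% and 22.3% of TPM and 64.8% and 54.1% of counts. Copg2, a coat protein subunit that overlaps Mest tail to tail on the opposite strand, had 15.7 and 7.80 TPM. The deposited TPM interval of Copg2 in replicate 2 ran from 7.54 to 20.3, so its level there and its ratios are as wide. The shared exon stretch of 912 bases is 23.1% of the annotated exon bases of Mest and 17.8% of those of Copg2. How the authors' counting used strand is not given, so whether Mest reads entered the Copg2 level is not known. Mest exceeded Copg2 by 3.77 ± 0.58 (log2), and Copg2 lay below its paralog Copg1 with a log2 ratio of -1.92 ± 0.45.

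At H19-Igf2, the growth factor Igf2 had 78.7 and 69.5 TPM and the noncoding H19, read from the other parental copy under a shared enhancer, 60.1 and 44.5 TPM. Their log2 ratio of 0.52 ± 0.18 was under 2-fold in both libraries. In brain, Igf2 is known to come largely from choroid plexus and meninges, where both copies are read. All 8 meningeal fibroblast markers were detected, with summed levels of 675 and 463 TPM, and their counts differed by -0.21 (log2, replicate 2 over replicate 1). Ptgds set most of the TPM sum, with 581 and 390 TPM, and differed by -0.26. Igf2 differed by -0.09 on the same scale while choroid plexus markers differed by 3.31, or by 1.32 without Ttr, and the part of either tissue in the Igf2 level was not tested. Igf2 shares 59.3% of its read-length windows with Gm49394, a GENCODE M21 gene not used here. The leading transcript of Igf2 was the coding Igf2-202 in replicate 1 (39.2%, against 33.3% in replicate 2) and the 958-base Igf2-208 in replicate 2 (45.7%, against 31.2% in replicate 1). H19-202 held 72.5% and 59.9% of H19.

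Igf2r, the receptor that clears IGF2 and is maternal in most mouse tissues but read from both copies in neurons, had 9.46 and 5.86 TPM. Its deposited TPM interval in replicate 1 ran from 9.43 to 26.2, and in replicate 2 from 5.97 to 12.2, above its listed TPM, which leaves its level wide. Airn, the paternal antisense RNA that silences Igf2r elsewhere, had 2.94 and 0.77 TPM from 96 and 83 counts. It lay below Igf2r with a log2 ratio of -2.21 ± 0.79 and passed the detection level in replicate 1 only. The Airn row holds 6 transcripts of 435 to 1375 bases, while the gene spans 12741311 to 12860136 on chromosome 17. RNA from the rest of that span is not in this level or ratio. Airn-206 of 521 bases held 64.4% of Airn TPM in replicate 1 but 10.6% in replicate 2, from 35 and 2.79 counts.

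In the Kcnq1 domain the cell cycle inhibitor Cdkn1c was the only detected member, with 24.5 and 16.6 TPM from 3043 and 3795 counts. Kcnq1ot1, the long noncoding RNA that silences its maternal neighbours on the paternal copy, shows how unit decides rank. It had 6701 and 9370 counts, the 15th highest of the 45 members in both libraries, but 1.04 and 0.79 TPM and the rank 38, because its row is 84395 bases long. Kcnq1, the potassium channel gene it crosses, had 63 and 32 counts, with 0.30 and 0.08 TPM. Kcnq1ot1 exceeded Kcnq1 by 1.91 ± 0.56 (log2), but with the authors' posterior mean TPM the ratio reversed to -1.98.

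The placental genes of this domain were near 0. Phlda2, which limits placental growth, had 0 counts in replicate 1 and 25 in replicate 2. Ascl2, a transcription factor of trophoblast, had 10 and 0 counts. Slc22a18, a transporter, had 10 counts in both libraries, with 0.10 and 0.06 TPM. A count of 0 allows up to 3 counts by sampling, or 0.0643 CPM (counts scaled to library size) in replicate 1 and 0.0412 in replicate 2, and covers counting error only.

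**Figure D3:**
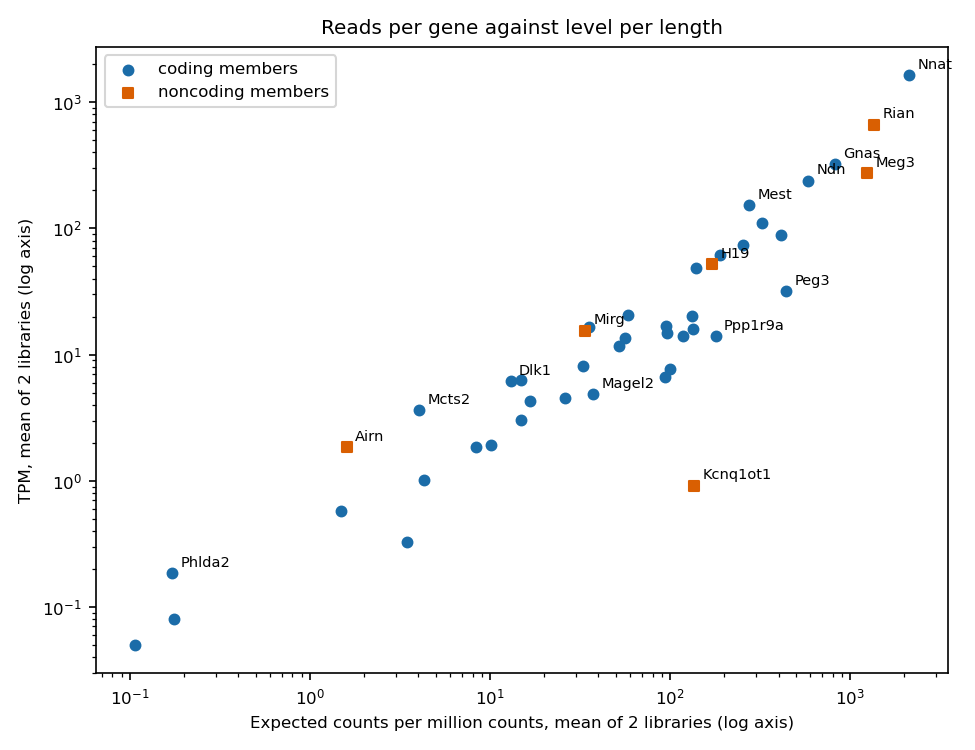
Mean level per length in TPM against mean expected counts scaled to library size (CPM, both log axes) for the 44 imprinted genes above 0, with coding members as circles and noncoding members as squares. Kcnq1ot1 lies far below the other members of like counts, at 1.04 and 0.79 TPM from 6701 and 9370 counts.

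The Peg3 domain holds 3 members. Peg3, a zinc finger transcription factor tied to maternal behaviour in mice, had 36.4 and 27.5 TPM. Usp29, a ubiquitin protease, had 15.3 and 11.9 TPM and lay below Peg3 with a log2 ratio of -1.22 ± 0.03. The maternally read zinc finger gene Zim1 had 4.57 and 4.50 TPM, with a ratio of -2.78 ± 0.27. The annotated Peg3 and Usp29 genes start 146 bases apart and run in opposite directions. The stretch between the starts is shown from the Usp29 side, plus strand, at chr7:6730432-6730577 (RefSeq, GRCm38.p6), with the letters CCAAT, searched on both strands, in capitals.
Peg3-Usp29: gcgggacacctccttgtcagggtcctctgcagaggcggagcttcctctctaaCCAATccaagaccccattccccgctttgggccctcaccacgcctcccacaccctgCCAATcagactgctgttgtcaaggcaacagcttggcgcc
It holds CCAAT 2 times, both on the plus strand. Of all RefSeq promoter windows, 24% hold CCAAT on either strand within the same number of bases before the start, and 5.85% hold it at least 2 times. The one Usp29 transcript in the authors' tables starts 230582 bases downstream of this stretch, so the Usp29 level given here does not include any exon next to it.

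Peg10 and Sgce also start head to head, 98 bases apart. Peg10, a retrotransposon-derived gene needed in the placenta, had 17.5 and 14.2 TPM, and Sgce, a sarcoglycan linked in human to myoclonus dystonia, 6.46 and 6.05 TPM. Peg10 exceeded Sgce by 1.32 ± 0.14 (log2). Ppp1r9a, a neuronal actin and phosphatase binding protein, had 15.9 and 12.2 TPM, below its paralog Ppp1r9b (-1.48 ± 0.32). The ratio of Sgce to Ppp1r9a was -1.14 ± 0.21 and missed 2-fold in replicate 2, at -0.995; with a pseudocount of 0.01 TPM or with FPKM it passed. Calcr, the calcitonin receptor, had 3.10 and 3.01 TPM, and Asb4, a ubiquitin ligase adaptor, 1.93 and 1.78 TPM.

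Of the single-gene loci, Impact, a regulator of the GCN2 kinase, had 18.7 and 15.2 TPM and Trappc9, a vesicle tethering subunit, 15.3 and 14.2 TPM. Zdbf2, a paternally read zinc finger gene active in hypothalamus, had 7.52 and 5.80 TPM, of which Zdbf2-201 held 44.4% and 49.9%. Plagl1, a zinc finger factor that restrains growth, had 26.1 and 7.13 TPM but 1643 and 2622 counts. Its TPM ratio between the libraries was -1.86 (log2) and its scaled count ratio 0.07. Its leading transcript was the 390-base Plagl1-218 in replicate 1 (32.5%, and 9.98% in replicate 2) and the 5260-base coding Plagl1-202 in replicate 2 (48.4%, and 11.7% in replicate 1). Plagl1-202 held 71.2% and 92.9% of the gene's counts.

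Over all pairs, 30 of 31 gave a ratio, and 25 differed 2-fold or more in 1 direction in each library. Of these, Phlda2 and Ascl2 against Cdkn1c had 1 library at 0 counts. The first-named gene was higher in 7 of them and the second in 18. The 5 that did not pass were Nap1l5 over Herc3, Zrsr1 over Commd1, Zrsr1 over Zrsr2, Sgce over Ppp1r9a and Igf2 over H19.

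**Figure D4:**
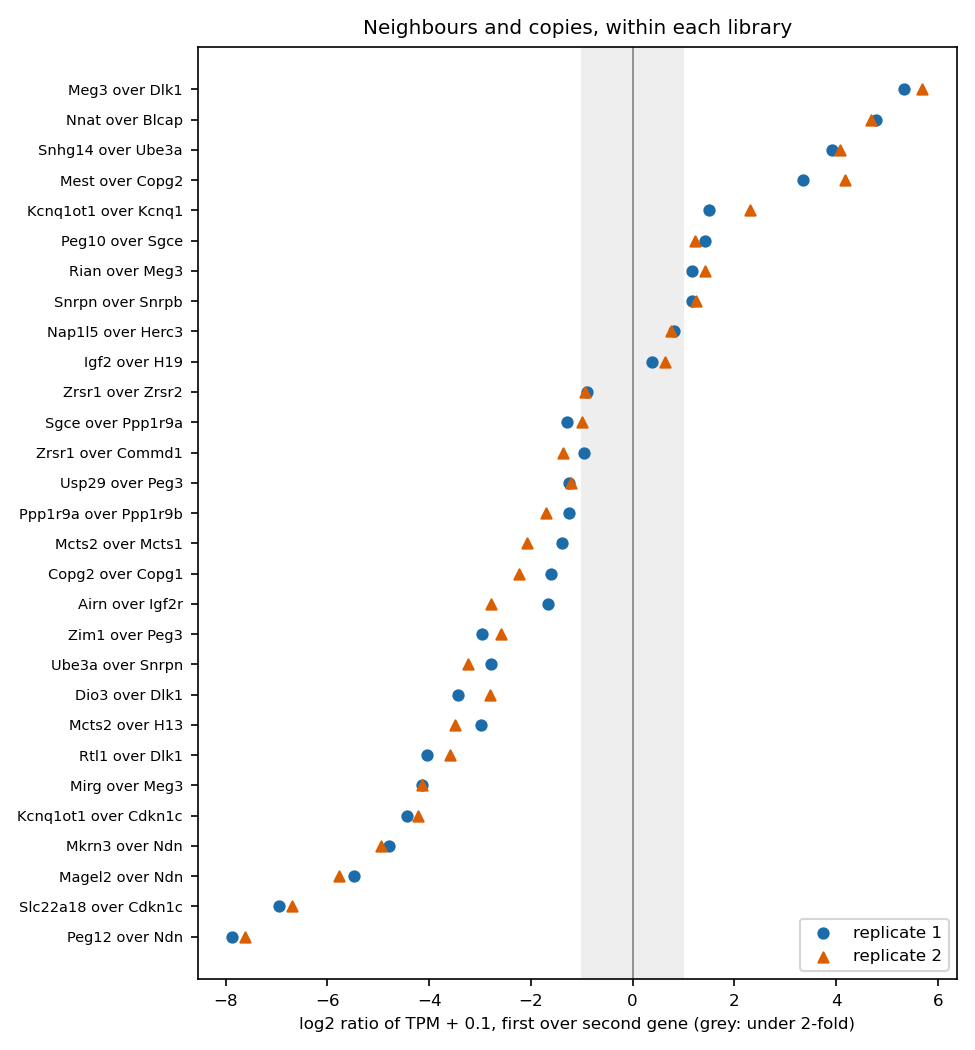
Log2 ratio of TPM + 0.1 of the first over the second gene in replicate 1 (circles) and replicate 2 (triangles) for the 28 fixed pairs in which the first gene had counts in both libraries, and for Snhg14 over Ube3a; grey marks ratios under 2-fold. Meg3 over Dlk1 was widest in favour of the first gene, at 5.33 and 5.70, and Peg12 over Ndn widest in favour of the second, at -7.87 and -7.63.

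Of 27 detected members with at least 2 annotated transcripts, 21 had the same leading transcript in both libraries, against 82.7% of 8750 such genes. The 6 that differed were Sgce, Plagl1, Calcr, Dlk1, Igf2 and Commd1. For Dlk1 the 668-base retained-intron Dlk1-210 led in replicate 1 with 42.8% of TPM (12.2% in replicate 2), while the coding Dlk1-205 led in replicate 2 with 36.7% (32.0% in replicate 1). For Commd1 the retained-intron Commd1-205 held 55.9% in replicate 1 and 0% in replicate 2.

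Between the libraries, imprinted genes were compared on scaled counts. Of 43 members with 20 or more summed counts, only Phlda2 passed 2-fold higher in replicate 2, where 7.72% of genes did, and none passed 2-fold lower, where 5.83% of genes did. With its 0 counts in replicate 1 set to 3, Phlda2 was 5.49-fold higher in replicate 2, where it had 25 counts. This value takes the 25 counts as exact and is not a lower bound. The counting interval of Phlda2 started lower, at a log2 ratio of 2.05, and had no upper limit. The median log2 ratio of members was -0.10, against 0.01 over all genes tested. Ratios below 0 were found in 30 of 43 members and in 49% of all genes tested, and 35 members lay within 0.5 of 0, against 71.4% of all genes tested. Of the 36 detected members, 32 lay within 0.5, against 88.2% of detected genes, a share near that of the members.

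The members lower in replicate 2 by more than 0.5 included Meg3 and Mirg of the maternal noncoding unit, at -0.57 and -0.55. Their 95% counting intervals ran from -0.59 to -0.56 and from -0.65 to -0.46. Rian, between them, differed by -0.20, and Snhg14, the noncoding host of the other large domain, by -0.47. Mcts2 (-0.52), Dio3 (-0.69), Airn (-0.81) and Slc22a18 (-0.60) rest on 20 to 463 summed counts. Commd1 was higher in replicate 2 at 0.53. These intervals cover counting error only and not variation between pools. Higher TPM was listed in replicate 1 for 42 of the 45 members, beside the median ratio of -0.26 over all genes tested.

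**Figure D5:**
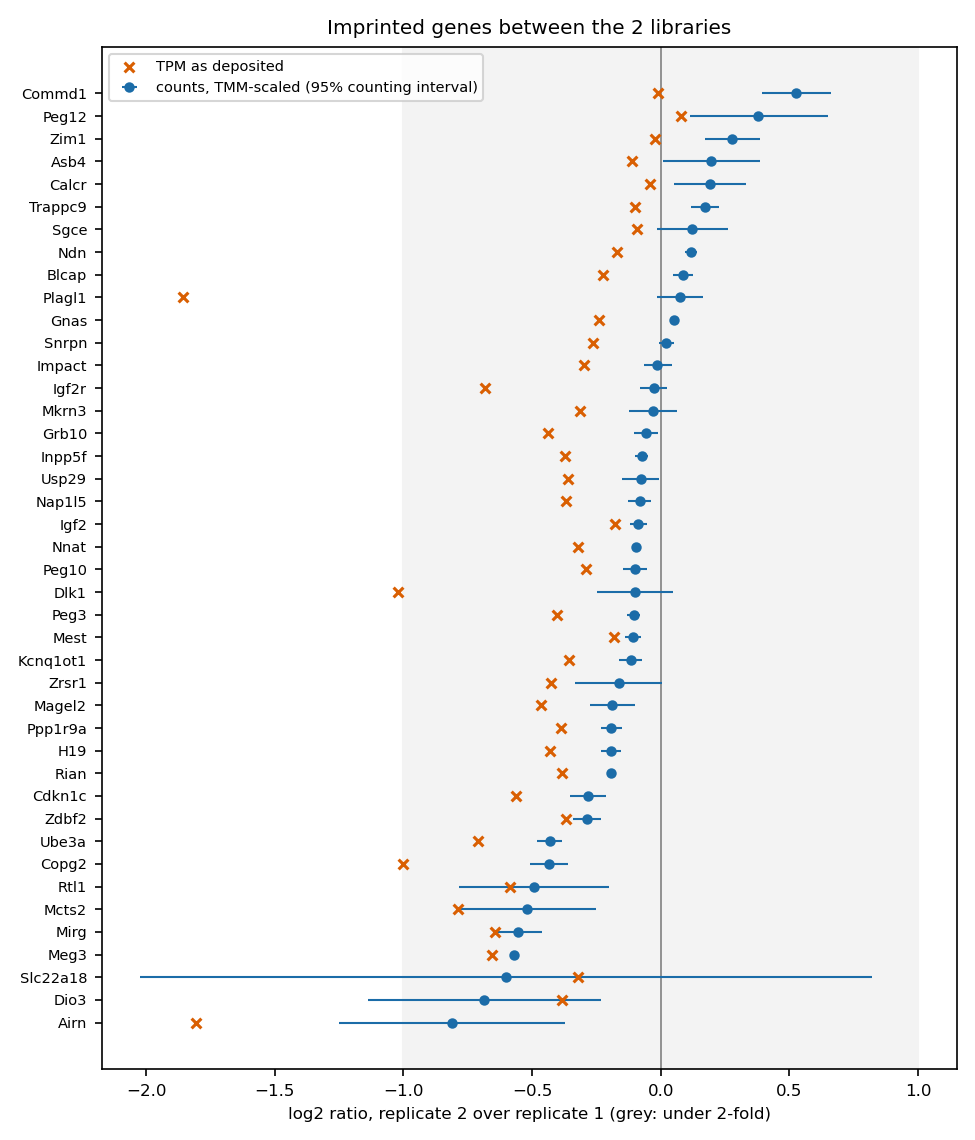
Log2 ratio of replicate 2 over replicate 1 for the 42 imprinted genes with 20 or more summed counts and reads in both libraries, from TMM-scaled counts (points, with 95% counting intervals) and from deposited TPM (crosses). The count ratios run from -0.81 for Airn to 0.53 for Commd1, and Plagl1 stands out with 0.07 in counts and -1.86 in TPM.

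Of 28 listed genes that set, keep or read imprints, 23 were detected, against 53.8% of protein-coding genes. Trim28, the corepressor that ZFP57 recruits, was highest with 99.5 and 119 TPM, followed by the histone methyltransferase Ehmt2 with 66.5 and 68.9 TPM. Zfp57 itself had 38.9 and 25.7 TPM, and the maintenance DNA methyltransferase Dnmt1 17.7 and 16.7 TPM. Dnmt3a (21.6 and 16.2 TPM), which methylates new sites, Hnrnpu (19.4 and 14.3 TPM) and Ehmt1 (14.5 and 11.6 TPM) were also detected. Dnmt3l and Dppa3, which act in germ cells and the early embryo, Ctcfl, the testis paralog of Ctcf, and Zfp42 had 0 counts in both libraries. Ctcf, the insulator protein of H19-Igf2, had 9.42 and 7.37 TPM.

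The hexamer TGCCGC, the core that ZFP57 binds when methylated, was searched on both strands in RefSeq promoter windows of 300 bases (250 before and 50 after a start). Of the members, 38 had a window, 56 windows in all, and Rtl1, H19, Cdkn1c, Peg10, Sgce, Impact and Trappc9 had none. The hexamer was in 16 of the 56 windows (28.6%, in 15 genes), against 11.6% of all 32851 windows. Some windows overlap: Snrpn and Snurf share 1, and Mest has 2 nearly identical ones. With each window that overlaps an earlier one dropped, a step chosen after seeing the data, the hexamer was in 14 of 52 windows of members (26.9%), against 11% of 29164 windows. The members' windows held a median of 15 CpG dinucleotides, against 7 in all windows, and 51.8% held at least 15, against 34.6% of all windows. The hexamer itself contains a CpG, and its shares were not compared at equal CpG content, so they do not show an excess beyond CpG content. Imprinting control regions often lie outside such windows, and no match says only that these letters are not in the window. The bases before 3 of the starts are shown as examples for Mest, Nap1l5 and Meg3, with the hexamer or its reverse complement GCGGCA in capitals. Mest is at chr6:30737800-30738049 (plus strand), Nap1l5 at chr6:58907127-58907376 (minus strand) and Meg3 at chr12:109540746-109540995 (plus strand), RefSeq, GRCm38.p6.
Mest: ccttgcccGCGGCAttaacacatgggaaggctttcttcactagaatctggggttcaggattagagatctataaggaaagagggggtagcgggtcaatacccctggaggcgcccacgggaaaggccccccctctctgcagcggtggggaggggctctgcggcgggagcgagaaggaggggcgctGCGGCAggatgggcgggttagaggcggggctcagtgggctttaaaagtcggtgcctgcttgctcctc
Nap1l5: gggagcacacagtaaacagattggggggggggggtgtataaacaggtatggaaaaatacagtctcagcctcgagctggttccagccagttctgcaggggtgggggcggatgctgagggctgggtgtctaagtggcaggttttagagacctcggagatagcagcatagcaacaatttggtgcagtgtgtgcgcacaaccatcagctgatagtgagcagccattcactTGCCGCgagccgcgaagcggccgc
Meg3: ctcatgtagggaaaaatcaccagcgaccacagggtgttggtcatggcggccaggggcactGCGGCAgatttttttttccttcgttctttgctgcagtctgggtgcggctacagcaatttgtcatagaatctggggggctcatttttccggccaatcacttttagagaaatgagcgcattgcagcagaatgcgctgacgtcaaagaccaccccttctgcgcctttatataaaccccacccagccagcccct
These stretches hold the hexamer 2 times for Mest, 1 time for Nap1l5 and 1 time for Meg3, and 14, 10 and 10 CpG dinucleotides. A match in a sequence is no measure of binding or methylation, neither of which was measured.

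Beyond the members, 32 of 49 further genes reported as imprinted in mouse, or neighbouring members, were detected. Of protein-coding genes 53.8% were detected, and of all Ensembl genes 27.7%. The highest of the 49 was the tetraspanin Cd81 of the Kcnq1 region with 95.9 and 99.3 TPM. Next was the DNA damage binding protein Ddb1 with 52.3 and 44.3 TPM. H13 (36.8 and 30.4 TPM), Herc3 (31.2 and 25.0 TPM), Nap1l4 (30.0 and 23.6 TPM), Bcl2l1 (28.4 and 22.8 TPM) and Casd1 (23.6 and 16.8 TPM) were also among the 8 highest. Ins2, the insulin gene next to Igf2, had 0 counts in both libraries.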

How the data were processed

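Gene and transcript tables of 2 libraries were used. The authors used assembly mm10 and annotation GENCODE M4, as a notes file they deposited records; no source used here gives the aligner or the quantification program. The authors deposited estimated counts (expected counts), TPM and posterior mean TPM, FPKM, bounds of a TPM credibility interval, and the percent of gene TPM per transcript. TPM is relative to all rows and divided by length, so a short transcript gains more TPM per read than a long one.

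Names, coordinates and starts came from GENCODE M21 on the same assembly, which matched 42462 of 43346 Ensembl identifiers; 6 of 261 transcripts of the members were not in it. The members, lists, pairs and settings were chosen with earlier results of these data known. All 45 members, both genes of 31 pairs, leading transcripts, the 8 highest genes of each further list and those at 0 were named by rule, except genes that are not reported here. Other genes named, such as Snhg14, Gm38393, Ctcf and Nespas, were chosen after their values were seen. Of 54 further imprinted genes listed, 49 matched a row; Zim3, Zfp264, Phf17, Drd1a and Peg13 were not analysed here.

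Pairs were compared as log2 ratios of TPM + 0.1 within each library and called at 2-fold the same way in both. Expected counts of all Ensembl genes were rounded to whole numbers and scaled between the libraries by TMM (edgeR 4.0.16). DESeq2 1.42.0 size factors were the alternative. Ratios were then compared over the 17574 genes whose counts summed to 20 or more, and 0.5 was added before log2. The scaling was tested on simulated data. Counting intervals (95%) are exact binomial, conditional on the summed count. Reads carry no molecular identifiers, so intervals and floors cover counting error only. The libraries are not 1 library deposited again: a chi-square test of their counts gave 53.8 per degree of freedom. Shared sequence was measured as windows of 1 read length found unchanged in transcripts of another gene, GENCODE M21, same strand. Of the 45 members, 36 shared none.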

Additional observations from a re-analysis of the deposited data

How the results depend on the processing

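No paired analysis was possible because the labels define 1 group. Detection of members moved between 34 and 41 of 45 over thresholds of 0.5 and 2 TPM, FPKM, posterior mean TPM, TPM rescaled over protein-coding genes, CPM and single libraries (37 without replicate 1, 38 without replicate 2). Members at 100 or more numbered 6 by TPM, 10 by FPKM and 13 by TPM rescaled over protein-coding genes, and 6 to 8 with 1 library left out. The members' mean share was 0.399% of TPM, 0.985% of counts and 1.84% of TPM over protein-coding and long noncoding genes, and 0.351% to 0.446% with 1 library left out. Pairs called numbered 25, and 16 at 4-fold; pseudocounts of 1 and 0.01, FPKM and posterior mean TPM gave 24 to 26. Kcnq1ot1 over Kcnq1 reversed to -1.98 with posterior mean TPM, from 1.91, and fell below 2-fold, at 0.69, with a pseudocount of 1; the cause was not tested. Members past 2-fold between the libraries numbered 1 by scaled counts, 5 by TPM ratio, 2 with no filter on counts and 0 with a summed count of at least 100. DESeq2 size factors, library totals and spike-in totals gave 1 each. Leading transcripts were shared in 21 members under each alternative run. Of single-member levels, posterior mean TPM moved Snurf to 7.29, Slc22a18 to 0.27, Igf2r to 12.3, Sgce to 6.67 and Commd1 to 4.56 by more than their SD. Rows with fewer than 100 counts (Dio3, Phlda2, Slc22a18, Ascl2 and Airn) are limited by depth, and Snurf, at 0 counts, by its effective length.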
